A study of Mus musculus with 6 samples.

Results

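The cyclins, kinases and regulators that carry a cell through G1, the interval between division and DNA synthesis, were examined in bulk RNA-sequencing data. The cultures were of mouse skin cells labelled as endothelial cells (ECs). The 10 genes were taken by name from the 55487 in the deposited table. They comprised the D cyclins Ccnd1, Ccnd2 and Ccnd3, the E cyclins Ccne1 and Ccne2, the kinases Cdk2, Cdk4 and Cdk6, the retinoblastoma gene Rb1, and the growth regulator Myc. All 10 passed the filter on low counts, which kept 19015 genes. Primary ECs of C57BL/6 genotype were isolated from the skin of 4 to 6 mice aged 2 to 3 months with beads against CD31, and were then grown in culture. Of the 6 samples, 3 (replicates 1 to 3) were kept at 5 mmol/L glucose (normal glucose) and 3 at 20 mmol/L (high glucose) for 48 hours. No genetic change or second agent was labelled in either group.

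D-type cyclins are the part of the cell cycle engine that responds to growth factors: they are made when mitogens are present and bind Cdk4 or Cdk6. The resulting kinases begin to phosphorylate the retinoblastoma protein, which otherwise holds E2F transcription factors in check. Released E2F raises the E cyclins, which with Cdk2 complete this phosphorylation and start DNA replication. Myc, a transcription factor that pairs with Max on CACGTG sites (E-boxes), promotes cell growth and entry into the cycle, and in blood vessels such entry accompanies sprouting and repair.

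Sequence upstream of Cdk4, Cdk6 and the Rb relative Rbl1 is shown first, because it holds matches to the motifs that Myc and E2F are known to bind. RefSeq promoter windows of GRCm38.p6, from 250 bases before to 50 after the start of transcription, were at hand for 5 of the 10 genes (Ccnd3, Ccne1, Cdk2, Cdk4 and Cdk6; Ccnd3 had 2 windows). These windows and those of the Rb relatives Rbl1 and Rbl2 were searched on both strands for the E-box CACGTG and the E2F-type motif TTTNNCGC. No match to one overlapped a match to the other. Capitals mark the matches to either motif, and all sequences read 5′ to 3′ on the strand of the gene. The Cdk4 stretch is chr10:127063285-127063533 on the plus strand, the Cdk6 stretch chr5:3343653-3343712 on the plus strand, and the Rbl1 stretch chr2:157204535-157204594 on the minus strand. None of the 3 stretches overlaps an annotated exon. The Cdk6 stretch lies before the start used for its window, but inside the annotated gene (3341485 to 3531008).
Cdk4: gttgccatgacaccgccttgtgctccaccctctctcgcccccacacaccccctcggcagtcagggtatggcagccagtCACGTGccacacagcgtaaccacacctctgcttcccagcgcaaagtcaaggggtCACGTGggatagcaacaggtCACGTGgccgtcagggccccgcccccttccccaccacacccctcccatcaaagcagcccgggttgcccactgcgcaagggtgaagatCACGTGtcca
Cdk6: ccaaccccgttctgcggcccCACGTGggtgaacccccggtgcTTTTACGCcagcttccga
Rbl1: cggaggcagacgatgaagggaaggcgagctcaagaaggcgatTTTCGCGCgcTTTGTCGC

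The Cdk4 window held 4 E-boxes. At least 1 E-box was present in 7.15% of all 32851 promoter windows, and at least 4 were present in 8 of them. Cdk6 had 1 E-box and 1 E2F-type match, and Cdk2 had 1 E2F-type match, a motif found in 5.17% of all windows. Rbl1, which encodes the Rb relative p107, held 2 E2F-type matches, as 0.326% of all windows held at least 2. Among the 15740 windows of tested genes these shares were higher. There 9.33% held an E-box, 7.54% an E2F-type match and 0.534% at least 2 E2F-type matches, and 5 windows held at least 4 E-boxes. The windows of Ccne1, Ccnd3 and the other Rb relative, Rbl2, had no match to these letters. Whether any factor occupied these sites in the cultures was not measured.

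The libraries held between 120192466 and 146881356 counts, and the members between 312 and 61444 counts per sample, Ccne2 having the fewest. The deposited counts were normalized with edgeR's trimmed mean of M values (TMM) and are given as CPM, the counts scaled to a fixed library total. Over all 19015 tested genes, 14.5% were called lower and 16.9% higher in high glucose, 31.4% in all, at q under 0.05. Here q is the P value of the quasi-likelihood test of edgeR after Benjamini-Hochberg adjustment over all tested genes. Of all calls, 46.2% were lower with TMM, 56.5% with upper quartile normalization and 72.9% with scaling by library size alone, which moved the median of all genes by -0.115 on the log2 scale. The study counts its sequencing replicates as mice, but each isolation used several mice, and neither it nor the labels say which isolation a sample came from. P values thus measure the spread between these samples, part of which may be technical.

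The cultures' labelled cell type was checked against marker genes. Of 12 endothelial markers, Pecam1, which encodes CD31, had between 9 and 19 counts per sample, Tie1 was at 0 in 5 of the 6 samples, and Emcn had between 0 and 9 counts, and Esam and Erg had at most 23 and 15. Counts were higher for Eng (15854 to 22307), Flt1 (4457 to 8030), Egfl7 (1113 to 1464) and Kdr (576 to 777), with Tek, Vwf and Cdh5 between 73 and 302. The endothelial markers were thus divided, some at or near 0 and others well detected. The summed level of these 12 markers lay between 216 and 243 CPM in normal glucose and between 194 and 200 CPM in high glucose, with 3 lower, 2 higher and 5 not called among the 10 tested. The 13 fibroblast markers summed to between 39417 and 42634 CPM in normal and between 72078 and 76950 CPM in high glucose, with 11 higher and 1 lower. In every sample the fibroblast sum was far above the endothelial sum. The labelled cell type was thus not borne out by these sums, and the results below cannot be assigned to ECs alone. Markers of mural cells, macrophages and keratinocytes summed to at most 410, 9.35 and 2.97 CPM. Of the 5 macrophage markers, Csf1r had between 364 and 795 counts per sample, Lyz2 between 192 and 256 and Cd68 between 114 and 212, while Adgre1 and Ptprc were at 0 in 5 of the 6 samples each. The part of these shifts in the results below was not tested. In bulk samples, fewer cells of one kind and less RNA per cell cannot be told apart.

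Of the 10 genes, 6 were lower in high glucose (Ccnd1, Ccnd2, Ccne1, Ccne2, Cdk6 and Myc), 1 was higher (Rb1) and 3 did not pass the threshold (Ccnd3, Cdk2 and Cdk4). That makes 7 of 10 called, where 31.4% of all tested genes were, and 6 of 10 lower, where 14.5% were. The 10 genes were chosen with earlier results of these data known, so these shares describe them and are not a test. Ccnd1, Ccnd2, Ccne1 and Ccne2 kept their calls in all 16 alternatives. The median log2 fold change of the 10 was -0.22, against 0.0062 over all tested genes. The sizes differed widely. Ccnd1 and Ccne2 fell to well below their normal glucose levels, Ccnd2 and Ccne1 fell by about the same moderate amount, and the kinases, Rb1 and Myc had log2 values closer to 0. Groups were fully separated, with no overlap, for 9 of the 10 genes, Ccnd3 being the exception, beside 46.4% of all tested genes. In 8 of these high glucose was lower (21.3% of all tested genes) and in 1 it was higher (25.1%).

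**Figure D1:**
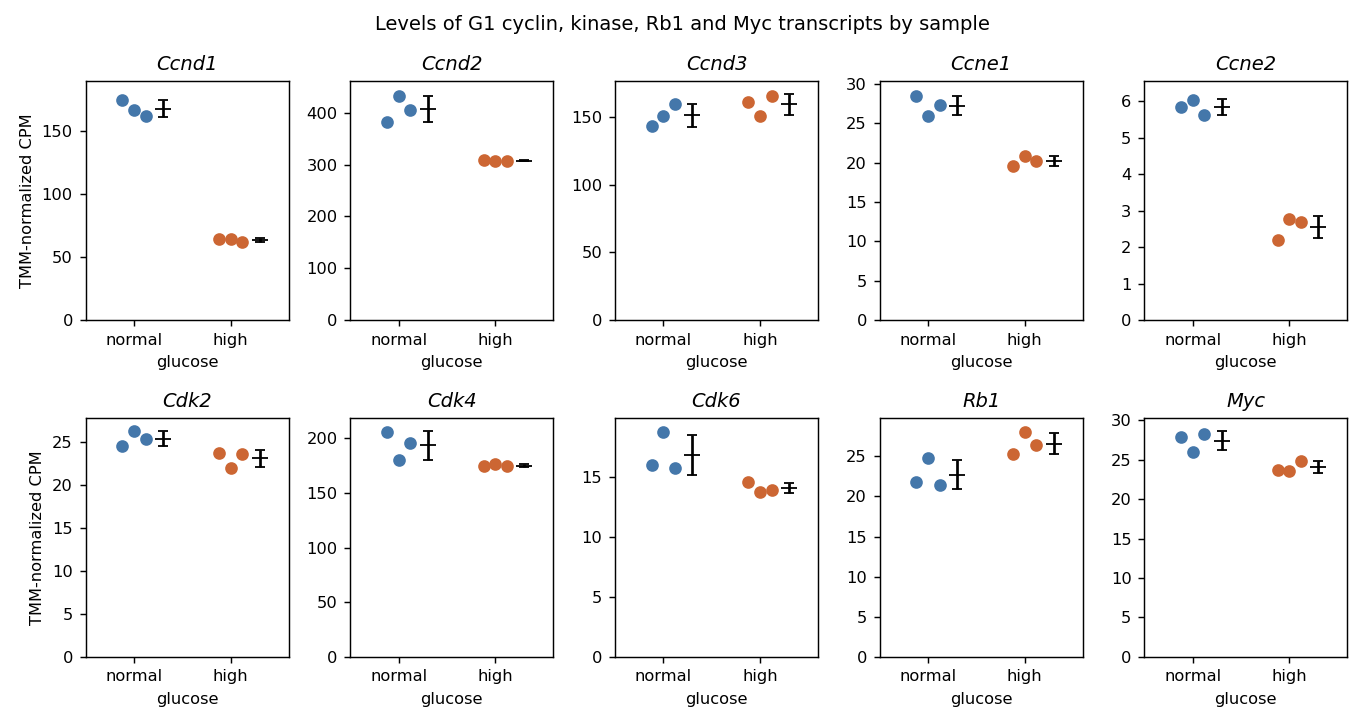
TMM-normalized CPM of each gene (y axis, from 0) in the 3 normal glucose samples (blue) and the 3 high glucose samples (orange), with the group mean and SD in black. Ccnd1 and Ccne2 show the widest gap between the groups, and the Ccnd3 values overlap.

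Cyclin D1, encoded by Ccnd1, is the D cyclin most often linked to mitogen signaling. Ccnd1 (ENSMUSG00000070348, chromosome 7 of GRCm38 from 144929931 to 144939925, minus strand) stood at 175, 167 and 162 CPM in normal glucose replicates 1, 2 and 3 and at 64.2, 64.4 and 61.8 CPM in high glucose. Every high glucose sample thus lay far below every normal glucose sample, and the 3 were close to one another. Its fold change on the log2 scale was -1.40 (SE 0.053, edgeR q = 5.6e-08), a change of -62.2%. Only 209 of the 2757 genes called lower had a larger fall. Of the 1711 tested genes at least as abundant as Ccnd1, only 5 fell by more: Fam198b (-1.94), Ccl11, a chemokine for eosinophils (-1.78), Gm2115 (-1.65), Gsto1, a glutathione transferase (-1.52), and Crabp1, a binding protein for retinoic acid (-1.52). These 5 are named because the count was small, after their values were seen. Exons of Ccnd1 share 1100 bp with LTO1 of the other strand, and whether strand was used in counting is not stated. The log2 fold change of LTO1 itself was 0.0064 (edgeR q = 0.945).

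Cyclin D2 (Ccnd2, ENSMUSG00000000184, chromosome 6 from 127125162 to 127152193, minus strand) had the highest counts of the 10 genes. It stood at 383, 433 and 406 CPM in normal glucose and at 309, 307 and 307 CPM in high glucose. All high glucose values were lower, and they were nearly identical. The log2 fold change of -0.40 (SE 0.056, edgeR q = 3.7e-04) is a change of -24.4%. Cyclin D3 (Ccnd3, ENSMUSG00000034165, chromosome 17 from 47505051 to 47599691, plus strand), the third D cyclin, stood at 143, 151 and 160 CPM in normal glucose and at 161, 151 and 166 CPM in high glucose. The groups overlapped. Its log2 fold change was 0.075 (95% interval -0.057 to 0.21, edgeR q = 0.372) with TMM and -0.039 with library size scaling, so no direction can be given. Ccnd3 shares 361 exonic bp with Bysl on the opposite strand, and a pseudogene that carries its name, Ccnd3-ps, had 21 counts in all 6 samples together.

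The D cyclins differed in how far high glucose samples departed from normal glucose samples. The log2 ratio of Ccnd1 to Ccnd2, in which normalization cancels, was -0.52 ± 0.13 in normal and -1.52 ± 0.030 in high glucose (per kb, SD, n = 3), a difference of -0.999. For Ccnd1 to Ccnd3 the difference was -1.48, and for Ccnd2 to Ccnd3 it was -0.48. For each ratio all 3 high glucose samples were below all normal glucose samples (exact permutation P = 0.1, two-sided, which is the least that 3 samples against 3 can give).

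To compare the D cyclins with one another, CPM were divided by the length of a reference transcript (3740 bases for Ccnd1, 6330 for Ccnd2 and 2064 for Ccnd3). On this scale the 3 genes summed to 182 ± 5.10 CPM per kb in normal and 143 ± 3.49 in high glucose (SD, n = 3). Ccnd1 made up 26.5%, 24.0% and 23.4% of that sum in the normal glucose samples and 11.9%, 12.4% and 11.4% in the high glucose samples. The share of Ccnd3 was 40.2 ± 1.54% in normal and 54.1 ± 1.33% in high glucose, while that of Ccnd2 was 35.2 ± 1.37% and 34.1 ± 0.817%. The Ccnd1 share was lower in all high glucose samples whichever length was used, but the rank of the others was not fixed. With all annotated exons merged, which makes Ccnd3 8775 bases long, Ccnd2 became the largest, at 44.99 ± 1.75% and 50.8 ± 0.501%, and Ccnd3 had 17.9 ± 0.966% and 28.2 ± 1.09%.

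**Figure D2:**
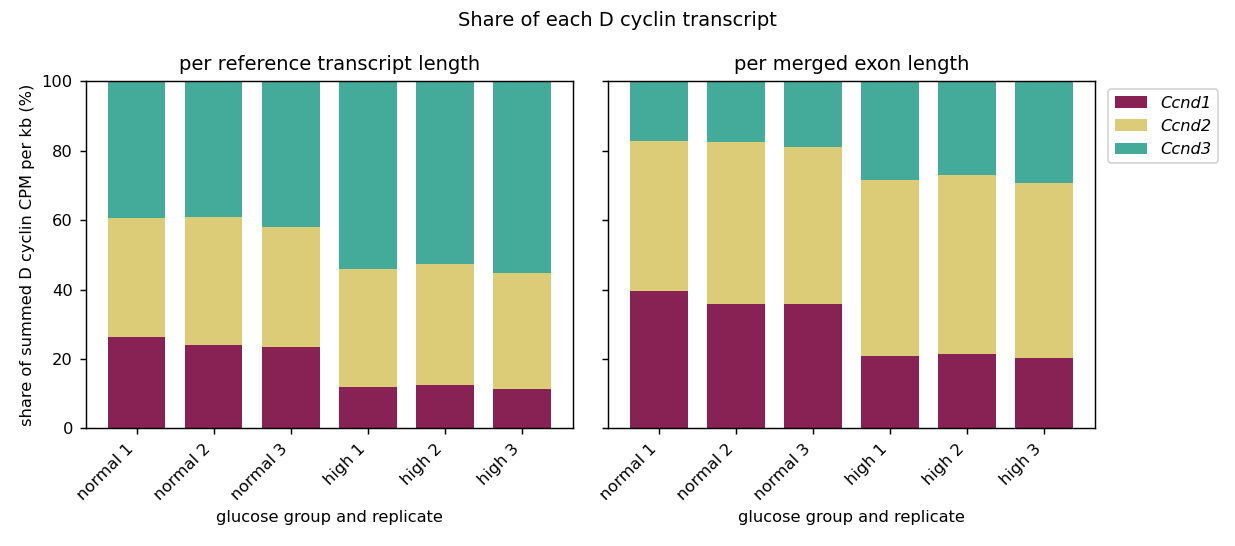
Share of each D cyclin transcript in the summed D cyclin CPM per kb (y axis, percent) in each sample, with counts divided by the reference transcript length (left) or the merged exon length (right). The Ccnd1 segment is smaller in each high glucose sample under both lengths, and the largest segment in high glucose is Ccnd3 on the left and Ccnd2 on the right.

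The E cyclins, which activate Cdk2 at the end of G1 and are themselves E2F targets, were both lower. Ccne2 (ENSMUSG00000028212, chromosome 4 from 11191351 to 11204779, plus strand) gave 733, 858 and 720 counts at 5 mmol/L and 312, 323 and 363 at 20 mmol/L, or 5.85, 6.05 and 5.62 CPM against 2.20, 2.78 and 2.69 CPM. No high glucose sample reached 3 CPM. Its log2 fold change was -1.19 (SE 0.11, edgeR q = 1.7e-05), a change of -56.3%. Its exons share 609 bp with Ints8, a more abundant gene on the opposite strand, which was at 39.6 ± 1.97 and 39.0 ± 1.98 CPM in normal and high glucose (SD, n = 3; log2 fold change -0.023, edgeR q = 0.807).

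Ccne1 (ENSMUSG00000002068, chromosome 7 from 38097984 to 38107534, minus strand), free of exonic overlap in the annotation, stood at 28.4, 26.0 and 27.3 CPM in normal glucose and at 19.6, 20.8 and 20.2 CPM in high glucose. Its log2 fold change was -0.43 (SE 0.056, edgeR q = 2.2e-04), a change of -25.9%. Per kb of reference transcript, Ccne1 was the main E cyclin in every sample, with 87.5 ± 0.787% of the E cyclin sum in normal and 92.2 ± 0.702% in high glucose. The log2 ratio of Ccne1 to Ccne2 differed by 0.77, and was higher in each high glucose sample than in any normal glucose sample (exact permutation P = 0.1, the smallest possible).

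The kinases that these cyclins bind differed less between the groups. Cdk4 (ENSMUSG00000006728, chromosome 10 from 127063534 to 127067920, plus strand) is the gene with the E-box cluster shown above. Per kb its transcript exceeded that of Cdk6, the other D cyclin kinase, in every sample, while binding to D cyclins was not measured. Cdk4 stood at 206, 180 and 195 CPM in normal and at 174, 176 and 174 CPM in high glucose. The lowest normal glucose sample, replicate 2, was only just above the high glucose samples. The log2 fold change of -0.15 (95% interval -0.27 to -0.016) did not pass the threshold (edgeR q = 0.0830). Without normal glucose replicate 2 it was -0.21 (edgeR q = 0.0122), and Cdk4 passed under 6 of the 16 alternatives, with q values from 0.00532 to 0.167. Its neighbour Tspan31, on the opposite strand with 641 shared exonic bp, had a log2 fold change of -0.12 (edgeR q = 0.0944).

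Cdk2 (ENSMUSG00000025358, chromosome 10 from 128697939 to 128705031, minus strand), the partner of the E cyclins, stood at 24.5, 26.3 and 25.4 CPM in normal and at 23.8, 22.02 and 23.6 CPM in high glucose. The groups were separated by less than 1 CPM. Its exons share 34 bp with Pmel on the opposite strand, whose log2 fold change was 0.43 (edgeR q = 0.0173). The log2 fold change of Cdk2 was -0.14 (95% interval -0.26 to -0.011, edgeR q = 0.0911), and -0.18 without normal glucose replicate 1 (edgeR q = 0.0296). The log2 ratio of Ccne1 to Cdk2 differed by -0.30, with all high glucose samples below all normal glucose samples (exact permutation P = 0.1).

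Cdk6 (ENSMUSG00000040274, chromosome 5 from 3341485 to 3531008, plus strand), the alternative D cyclin kinase, stood at 15.96, 18.7 and 15.7 CPM in normal and at 14.6, 13.7 and 13.9 CPM in high glucose. Normal glucose replicate 2 was the highest of the 6. Its log2 fold change was -0.25 (SE 0.077, edgeR q = 0.0289). It was -0.18 without normal glucose replicate 2 (edgeR q = 0.0515), -0.25 without high glucose replicate 2 (edgeR q = 0.0785) and -0.26 without high glucose replicate 3 (edgeR q = 0.0827), the SE being 0.091 and 0.096 in the last pair. With all 6 samples it was also not called without the filter on low counts (edgeR q = 0.0514). Per kb, Cdk6 made up 1.53 ± 0.253% and 1.41 ± 0.0507% of the sum of Cdk4 and Cdk6 in normal and high glucose (SD, n = 3), and the log2 ratio of the pair differed by 0.11 (exact permutation P = 0.7).

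Rb1 encodes the retinoblastoma protein, the brake on which the G1 kinases act. Rb1 (ENSMUSG00000022105, chromosome 14 from 73183673 to 73325822, minus strand) was the 1 member called higher, at 21.8, 24.8 and 21.5 CPM in normal and 25.3, 28.0 and 26.4 CPM in high glucose. Normal glucose replicate 2 and high glucose replicate 1 were less than 1 CPM apart. The log2 fold change was 0.23 (SE 0.068, edgeR q = 0.0282), or 0.11 with library size scaling (edgeR q = 0.240). It was no longer called when any one sample but normal glucose replicate 2 was left out, with values of 0.18 (edgeR q = 0.0650) and 0.18 (edgeR q = 0.128) without normal glucose replicates 1 and 3, and of 0.24, 0.17 and 0.22 (edgeR q = 0.0592, 0.136 and 0.107) without high glucose replicates 1, 2 and 3. Its exons share 488 bp with Rcbtb2 and 408 bp with Lpar6, both on the opposite strand, and Rcbtb2 had a log2 fold change of 0.20 (edgeR q = 0.0168).

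The relatives of Rb1 moved in opposite directions. Rbl2, which encodes p130, the pocket protein of resting cells, had a log2 fold change of 0.30 (edgeR q = 0.00493), from 36.0 ± 2.40 to 44.3 ± 2.08 CPM (SD, n = 3). Rbl1, whose product p107 is made in cycling cells and whose upstream sequence is shown above, had one of -0.31 (edgeR q = 0.0388), from 7.85 ± 0.881 to 6.32 ± 0.510 CPM. Per kb, Rbl1 accounted for 11.7 ± 0.591% of the 3 pocket protein transcripts in normal and 8.11 ± 0.310% in high glucose. The log2 ratio of Rb1 to Rbl1 differed by 0.54 (exact permutation P = 0.1) and that of Rb1 to Rbl2 differed by -0.070 (exact permutation P = 0.3).

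Myc (ENSMUSG00000022346, chromosome 15 from 61985391 to 61990374, plus strand) stood at 27.9, 26.0 and 28.3 CPM in normal and at 23.8, 23.6 and 24.9 CPM in high glucose. All high glucose samples were lower, by a gap narrower than the range within normal glucose. On the log2 scale its fold change was -0.19 (SE 0.055, edgeR q = 0.0271), a change of -12.1%. Larger falls were found for 2631 of the 2757 genes called lower. Myc was not called without normal glucose replicate 3 (-0.17, edgeR q = 0.0761), high glucose replicate 1 (-0.19, edgeR q = 0.0806) or high glucose replicate 2 (-0.19, edgeR q = 0.0710). Its partner Max had a log2 fold change of -0.16 (edgeR q = 0.0811), and the log2 ratio of Myc to Max differed by -0.028 (exact permutation P = 0.8).

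**Figure D3:**
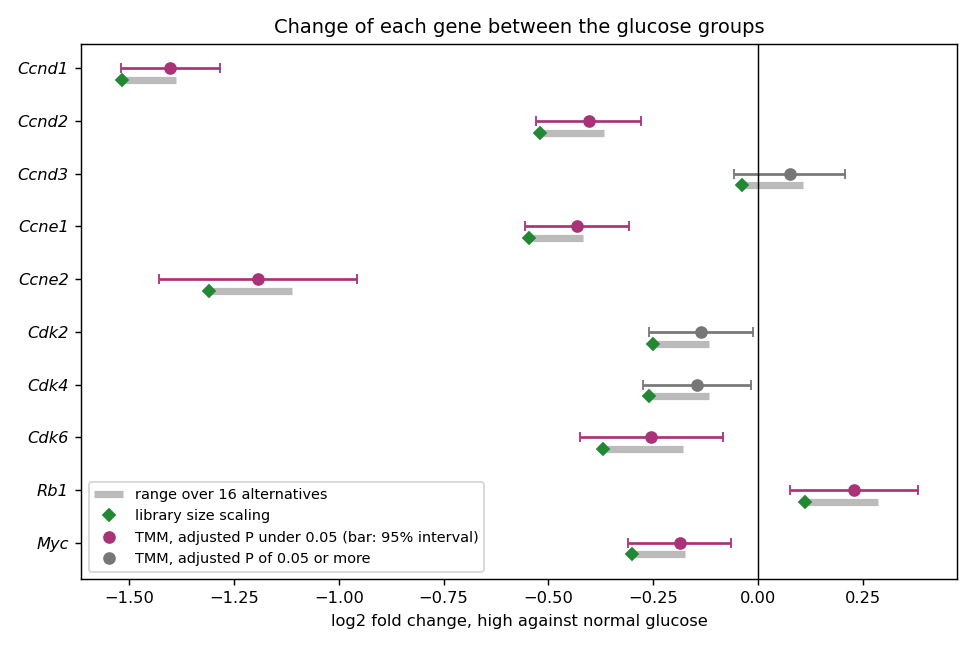
Log2 fold change of each gene between high and normal glucose (x axis) with TMM and its 95% interval, colored by whether q was under 0.05, above the range over 16 alternative settings (gray bar) and the value with library size scaling (green diamond). Only Ccnd3 has values on both sides of 0, and Ccnd1, Ccne2, Ccnd2 and Ccne1 were called lower in every setting.

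Levels between the 10 genes were set in order per kb of reference transcript over all 6 samples. Cdk4 came first (89.8 CPM per kb on average), followed by Ccnd3 (75.3), Ccnd2 (56.5) and Ccnd1 (30.9). Ccne1, Myc and Cdk2 formed a second tier at 11.9, 11.02 and 10.8, and Rb1 (5.29), Ccne2 (1.40) and Cdk6 (1.34) were lowest. In normal glucose only the ranges of Myc and Cdk2 overlapped among neighbours in this order. In high glucose Ccne1 overlapped Myc, and Myc overlapped Cdk2. Ccne2 and Cdk6 changed places there, with every Ccne2 value (0.73 to 0.92) below every Cdk6 value (1.19 to 1.27). In high glucose, Ccnd1 was at 17.0 ± 0.380 CPM per kb, against 44.8 ± 1.78 in normal glucose. With merged exon lengths Ccnd3 went from the second to the fourth place, Myc (9.48) came before Ccne1 (8.91), and Cdk2 (3.91) came after Rb1 (4.10), so these places depend on the transcript that is assumed.

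Genes that act with these 10 were followed in 10 lists, which together hold 94 genes, all of them tested. Like the members, the lists were chosen with earlier results of these data known. Of the 94, 39 were lower, 15 were higher and 40 were not called, with a median log2 fold change of -0.14. Over all tested genes 14.5% were lower and 16.9% higher, so the higher calls in these lists were about as frequent as among all genes, and the counts of each list are to be read against these shares. The counts by direction follow for each list.

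**Figure D4:**
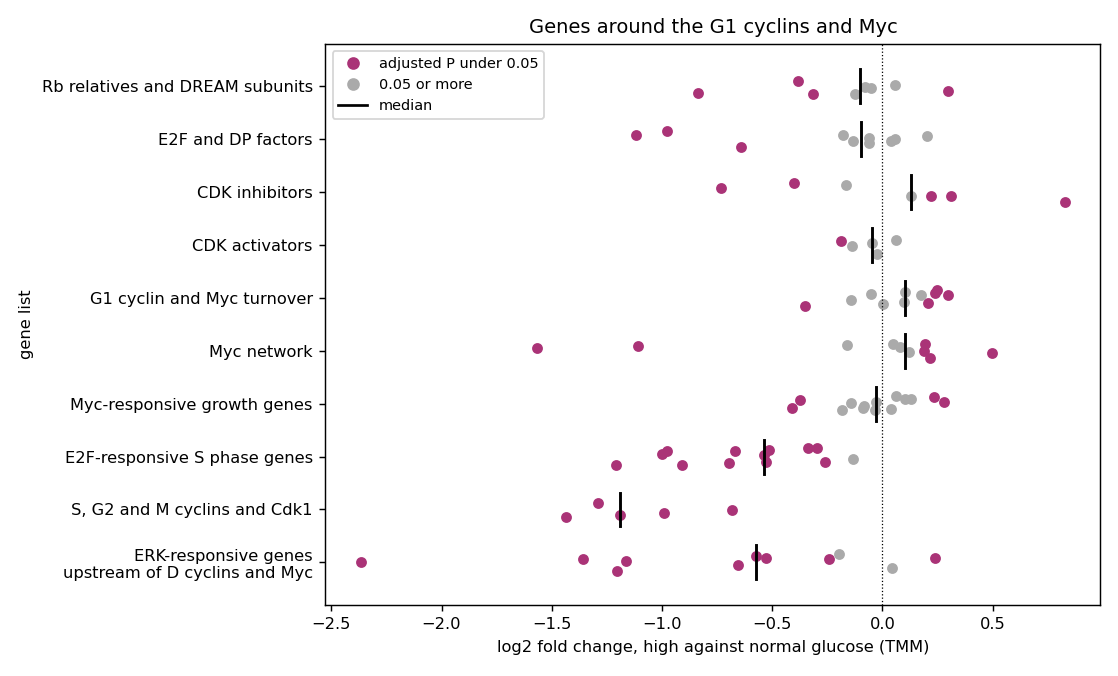
Log2 fold change between high and normal glucose (x axis) of each gene in the 10 lists (y axis), with called genes in purple, other genes in gray and the list median as a black line. The cyclins of later phases, the S phase genes and the ERK-responsive genes lie mostly below 0, while the Myc-responsive growth genes lie around 0.

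The cyclins that follow in the cycle fell together. Of Ccna2, Ccnb1, Ccnb2, Ccnf and Cdk1, which drive S phase, G2 and mitosis, 5 of 5 were lower with a median log2 fold change of -1.19. On the log2 scale Ccnb2 fell by 1.43, Ccnb1 by 1.29, Ccna2 by 1.19, Ccnf by 0.99 and Cdk1 by 0.68. Of 13 genes of DNA replication that E2F is known to drive, 12 were lower and 1, Tyms (-0.13, edgeR q = 0.162), was not called. Their median was -0.54, and the 3 with the largest change were Rrm2 (-1.21), a subunit of ribonucleotide reductase, and Mcm5 (-1.002) and Cdc6 (-0.98), which load and form the replicative helicase.

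Among the 10 E2F and DP factors, 3 were lower and none was higher with TMM, and 4 were lower with DESeq2, 5 with upper quartile normalization and 7 with library size scaling. The falls were in E2f7 (-1.12) and E2f8 (-0.98), which repress E2F targets, and in E2f2 (-0.64), an activator present at 1.89 ± 0.145 CPM in normal glucose. E2f1, the best known activator, had a log2 fold change of -0.18 (edgeR q = 0.0619) and was called lower with DESeq2, RLE, upper quartile or library size normalization or halved counts (q from 0.0064 to 0.0466). E2f4 had a log2 fold change of 0.055 (edgeR q = 0.535). In the list of Rb relatives and the DREAM complex, which silences cell cycle genes in resting cells, 3 of 8 were lower and 1 was higher. Mybl2, which replaces the repressive subunits in cycling cells, fell by 0.84, and Lin9 fell by 0.38.

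The CDK inhibitors, which bind and block the cyclin kinases, were divided, with 3 of 7 higher and 2 lower. Cdkn1c (p57) rose by 0.83 and Cdkn1b (p27) by 0.31, and Cdkn2b (p15), which blocks Cdk4 and Cdk6, rose by 0.22. Cdkn1a (p21), the most abundant of the 7, fell by 0.73, from 546 ± 27.0 to 328 ± 7.63 CPM (SD, n = 3), and Cdkn2a by 0.40. Cdkn2b was not called with upper quartile or library size scaling. The list median was 0.13 with TMM and 0.015 with library size scaling. Of 5 genes that activate the kinases, Cdc37, a chaperone that helps Cdk4 fold, was the 1 called gene (-0.19, edgeR q = 0.0493). Library size scaling gave 3 lower. The phosphatase gene Cdc25a had a log2 fold change of -0.025 (edgeR q = 0.783).

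Of 11 genes that control the breakdown of G1 cyclins and Myc, 4 were higher and 1 was lower. Ambra1 and Fbxo31, ubiquitin ligase components that target D cyclins, had log2 rises of 0.30 and 0.25, followed by Skp1a and Usp28 with 0.24 and 0.20, while Fbxw7, which targets cyclin E and Myc, had a log2 fold change of 0.17 (edgeR q = 0.0611). Skp1a (edgeR q = 0.04997) was not called with RLE, upper quartile or library size normalization or with halved counts. Usp28 was also not called with upper quartile normalization (edgeR q = 0.0601). Cks1b, a cofactor in the breakdown of p27, fell by 0.35. Library size scaling left none of the 4 rises and moved the list median from 0.10 to -0.015, so the direction of this list depends on the scaling.

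In the network of Myc relatives, 2 of 10 genes were lower and 4 were higher with TMM, with a list median that went from 0.10 to -0.013 under library size scaling. Mycn, a second Myc gene, had between 80 and 106 counts in normal and between 23 and 39 in high glucose, and fell by 1.57 on the log2 scale. Mxd3, a Max partner expressed in S phase, fell by 1.11. Mga (0.50), Mxi1 (0.22) and Mnt (0.20), which encode Max partners that oppose Myc, and Zbtb17 (0.19), which encodes the Myc partner Miz1, were higher with TMM. Zbtb17 (edgeR q = 0.0474) was not called with DESeq2, with RLE, upper quartile or library size normalization, or with halved counts. Library size scaling left 3 lower and 1 higher, Mga, and Mxi1 and Mnt were then not called (edgeR q = 0.168 and 0.270). Among 14 growth genes known to respond to Myc, most of them for ribosome production, 2 were lower, 2 higher and 10 not called, with a median of -0.031, and scaling by library size made that 5 lower and 0 higher. Odc1, the first enzyme of polyamine synthesis and a classic Myc target, fell by 0.41, Npm1 fell by 0.37, and Polr1b, a subunit of RNA polymerase I, rose by 0.28.

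Genes that respond to ERK signaling, the route by which growth factors raise D cyclins and Myc, were mostly lower. Of 11, 8 fell and 1 rose, and the median was -0.58. Etv4 (-2.37), Dusp6 (-1.36), Dusp4 (-1.20) and Spry4 (-1.16), a transcription factor and feedback inhibitors of the route, had the largest falls of the list. Spry2 fell by 0.65, Etv5 by 0.53 and Spred1 by 0.24. Fos fell by 0.58 and Jun rose by 0.24, the latter not called with library size scaling, and Egr1 had a log2 fold change of 0.045 (edgeR q = 0.694).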

How the data were processed

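Counts per gene were measured by RNA-sequencing of poly(A) RNA in 3 normal and 3 high glucose samples. The authors trimmed reads with Trimmomatic, aligned them to GRCm38 (mm10) with HISAT2, counted with StringTie and deposited unnormalized counts in whole numbers, with 1 value for each gene in a sample. Versions, strand and annotation are not given in the sources used here. Whether both reads of a pair were counted is not stated, so halved counts were tried.

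Groups and replicate numbers came from the labels. Symbols, positions and lengths came from GENCODE M21 (GRCm38), which named 55227 of 55487 identifiers; the rest held 0.00694% of counts. The reference transcript was the longest protein-coding one with an APPRIS tag and support level 1. Counts were filtered with filterByExpr (minimum count 10, minimum total 15) and tested in edgeR 4.0.16 (R 4.3.3) with TMM and the quasi-likelihood test, which was tested on simulated data. Standard errors and 95% intervals come from the test statistic. Totals of 120192466 to 146881356 counts make a floor of 3 counts at most 0.0258 CPM. The members and lists were chosen with earlier results of these data known, and all members are named; in lists of over 11 genes, the called genes with the 3 largest changes. Alternatives were DESeq2 1.42.0, the likelihood ratio test, other normalizations and filters, summed symbols, halved counts, a replicate block and each sample left out.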

Additional observations from a re-analysis of the deposited data

How the results depend on the processing

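Over 16 alternative settings, 133 of the 160 values computed for the 10 genes stayed on the same side of 0 and of the threshold. Ccnd1, Ccnd2, Ccne1 and Ccne2 were called lower in all 16, within -1.52 to -1.39, -0.52 to -0.37, -0.55 to -0.42 and -1.31 to -1.11. The calls of Cdk6, Rb1 and Myc were lost in 5, 8 and 3 settings, and Cdk2 and Cdk4 were called in 4 and 6. The log2 fold change of Ccnd3 was -0.039 with library size scaling. The number of the 10 genes called higher was 0 with upper quartile normalization, library size scaling, no filter or an adjusted p under 0.01, and between 0 and 1 with each sample left out, where 4 to 7 of the 10 were lower.

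Over all genes, 4884 were lower and 1819 higher under library size scaling, and an adjusted p under 0.01 gave 1671 and 1946. With each sample left out, between 2048 and 3065 genes were lower and between 1988 and 3149 higher. What caused these shifts was not tested. The replicate numbers are not said to pair the samples: after removing group means, samples with the same number correlated at -0.025, 0.0038 and 0.013, and 2 of 6 samples correlated best with their own number. A replicate block left 2418 genes lower and 2909 higher, 5 of the 10 genes were lower, and Cdk6 (edgeR adjusted p = 0.0533, quasi-likelihood), Cdc37 (0.0696), Cdkn2b (0.0692), Skp1a (0.0613) and Zbtb17 (0.0767) were not called, while E2f1 was (0.0496). Depth limited none of the 10 genes; Tie1, Emcn and Pecam1 lay near the floor of 3 counts.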
